A study of Mus musculus with 20 samples.

Results

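The cells described here were the 486 kidney cells that the authors named Myofib (myofibroblasts), of 113579 cells in an annotation of 18 single-cell RNA-seq libraries. Members were chosen by this cluster name alone. A second annotation of 136794 cells, which also covers 2 libraries from inhibitor-treated mice, has no Myofib cluster. There the rule took the cluster SMC (smooth muscle cells), with 1193 cells, of which 1075 were in the same 18 libraries.

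Myofibroblasts are contractile stromal cells that deposit collagen and other extracellular matrix in scarring tissue. In the kidney they are thought to arise mainly from resident pericytes and fibroblasts when these are activated after injury. They are marked by alpha smooth muscle actin, the product of Acta2, which smooth muscle cells of the vessel wall also express, so that the marker alone does not separate these cell types. After a brief injury they usually regress, whereas their persistence is a hallmark of kidney fibrosis.

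Kidneys came from male C57Bl/6J mice of 10-12 weeks, with 6 Control libraries and 12 libraries from mice whose renal pedicles were both clamped. Ischemia lasted 23 min (IRI short) or 30 min (IRI long), and kidneys were taken at 1, 3 and 14 d giving 2 libraries per ischemia time and day. The 2 inhibitor libraries came from IRI long mice at 14 d, 1 given VX765 (100 mg/kg), a caspase-1 inhibitor that blocks pyroptosis, and 1 given Liproxstatin (10 mg/kg), which blocks ferroptosis, both injected before ischemia and daily thereafter. The labels name no operation for Control and no vehicle for the IRI long libraries. Each library was taken as 1 mouse, and p-values measure only the spread between libraries. Values are shares of the cells recovered, not numbers of cells per kidney.

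The deposited tables give each cell's cluster name, treatment and position on a UMAP map, and Acta2 expression was not analysed here. The cluster name could therefore be compared with the map and the second annotation, but not checked against its marker. The map was made from the genes that made the clusters, so position on it describes the cluster and does not test its name. Libraries held 2064 to 14320 cells and 1 to 78 Myofib cells. Cell barcodes of 5 Control libraries (Scl and norm1 to norm4, as their cell names start) overlapped as if drawn from a smaller barcode pool than those of norm5, all IRI libraries and both inhibitor libraries. Treatment and barcode pool cannot be told apart in these 5 libraries, so values for norm5 are given beside comparisons with Control. Of the Myofib cells 7 (1.44%) had a barcode also seen in another of the 18 libraries, against 2.40% of all cells, and 0 barcodes were shared by Myofib cells of different libraries.

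Myofib cells were rare in Control kidneys, several-fold more frequent at 1 and 3 d after ischemia, and at 14 d back to the Control range after IRI short and below it after IRI long. The 1 and 3 d libraries contributed 413 of the 486 cells (85.0%), the 4 libraries of 14 d 20 cells (4.12%) and the Control libraries 53 cells (10.9%).

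In Control, Myofib cells made up 0.0740% of cells in the lowest library and 0.308% in the highest, with a median of 0.136% and a mean of 0.162% ± 0.0825 (SD, n = 6). The value of norm5 was 0.135%. At 1 d after IRI short the fractions were 0.464 and 0.416%, and at 3 d 0.734 and 1.04%. All 4 libraries lay above the highest Control library.

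After IRI long, 0.983 and 0.969% of cells were Myofib at 1 d and 1.63 and 2.81% at 3 d, the highest values of any library. The group means were 6.01 and 13.7 times the Control mean. At 14 d after IRI short the fractions were 0.0916 and 0.155%, inside the Control range. At 14 d after IRI long they were 0.0284 and 0.0138%, below all 6 Control libraries. The latter rest on 2 of 7050 and 1 of 7229 cells, with exact 95% binomial (Clopper-Pearson) intervals of 0.00344 to 0.102% and 0.000350 to 0.0770%. Intervals cover counting error only, and these overlap the intervals of several Control libraries.

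**Figure D1:**
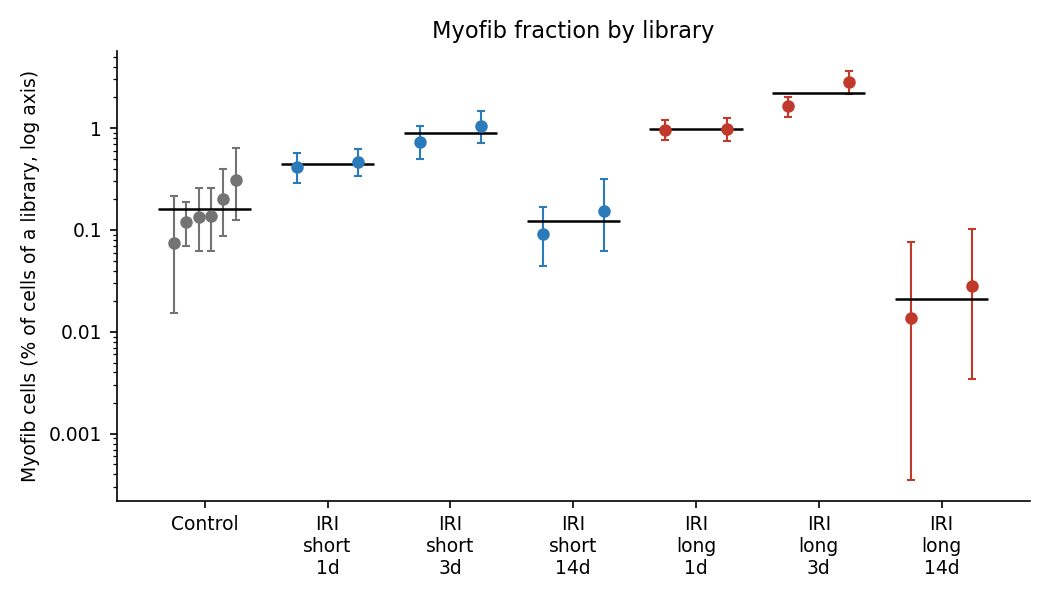
Myofib cells as percent of all cells of a library (log axis) by treatment and day. Points are libraries (6 Control, 2 in each other group), bars exact 95% binomial intervals and lines group means, and the 3 d IRI long libraries, at 1.63 and 2.81%, stand highest while the 14 d IRI long libraries, at 0.0284 and 0.0138%, stand lowest.

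Differences from Control were tested with limma on the logit of the fraction (natural log of the odds), with p adjusted over the 18 clusters. Changes below are on that scale, with the odds ratio as a fold, unless another scale, a ratio or percentage points are named. At 1 d the Myofib fraction rose by 1.04 ± 0.35 (SE) after IRI short, 2.83-fold, with a limma adjusted p of 0.0152. On the centred log-ratio scale, relative to the mean over all clusters, this change was −0.066 (limma adjusted p = 0.843), on the arcsine scale 0.0270 (0.0832), and without IRF2 0.99 (0.110). The fraction rose by 1.84 ± 0.35 after IRI long, 6.29-fold, with a limma adjusted p of 0.000126. Both were shared with many other clusters, as 38.9% of clusters rose at 1 d after IRI short and 44.4% after IRI long.

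At 3 d the rise was largest. The change was 1.74 ± 0.35 after IRI short (5.69-fold, limma adjusted p = 0.000233) and 2.64 ± 0.35 after IRI long (14.0-fold, limma adjusted p = 1.74e-06). On the centred log-ratio scale the IRI short change was 0.46 and did not pass (limma adjusted p = 0.262), whereas the IRI long change was 1.37 (0.00100). At this day 55.6% of clusters rose after IRI short and 61.1% after IRI long. After IRI long, Myofib ranked 6th of 18 clusters by its change, between Mono_1 (2.77), a monocyte cluster, and Endo (2.63), an endothelial cluster. In each of the 4 early groups both libraries exceeded all 6 Control libraries, and exact permutation of the library labels gave a two-sided p of 0.0357, the smallest that 28 arrangements allow.

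At 14 d after IRI short the change from Control was −0.22 ± 0.35 (limma adjusted p = 0.645), when 55.6% of clusters were called in either direction. The sign of this change varied with the scale and the cells counted. It was −1.15 on the centred log-ratio scale (limma adjusted p = 0.00548). For Myofib cells also named SMC it was 1.12 on the logit scale (limma adjusted p = 0.0543). After IRI long the fraction fell by 1.76 ± 0.35, which is 5.82-fold lower odds than in Control (limma adjusted p = 0.000202), when 38.9% of clusters fell. This fall depended on what the cells were counted against, on the scale and on the test. On the arcsine scale it lost the limma call, and exact permutation gave −0.141 percentage points (two-sided p = 0.0714). Among non-immune cells alone the change was −0.28 (limma adjusted p = 0.630), and with libraries weighted by their counting error it was −1.69 with a limma adjusted p of 0.179.

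Over all days the changes from Control were 0.85 ± 0.25 for IRI short (limma adjusted p = 0.00451) and 0.90 ± 0.25 for IRI long (limma adjusted p = 0.00276), with 50% of clusters higher in each comparison. With the barcode pool as a term, which sets the IRI libraries against the single library norm5, the values were 0.95 and 1.01. The spread in that fit came from the other Control libraries and the IRI libraries. As norm5 alone stood for Control there, no p-value is given, and these values do not show whether the changes hold within a barcode pool. On the centred log-ratio scale, relative to the mean over all clusters, the changes turned to −0.25 and −0.042. With the pool term the changes after IRI short were 1.14 at 1 d and 1.84 at 3 d. After IRI long they were 1.94 at 1 d, 2.74 at 3 d and −1.66 at 14 d.

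The mean Myofib fraction was higher after IRI long than after IRI short at 1 and 3 d and lower at 14 d, and of these differences that at 14 d passed the limma test. The mean fraction of IRI long was 2.22 times that of IRI short at 1 d and 2.50 times at 3 d, and every IRI long library exceeded both IRI short libraries of its day. The early changes were 0.80 ± 0.43 at 1 d (95% interval −0.11 to 1.70, adjusted p = 0.363) and 0.90 ± 0.43 at 3 d (−0.01 to 1.80, adjusted p = 0.233), with 5.56 and 0% of clusters called in either direction.

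At 14 d the order of the ischemia times was the opposite. The IRI short mean was 5.84 times the IRI long mean, and the IRI long change was −1.54 ± 0.43 (limma adjusted p = 0.0130), when 27.8% of clusters were lower. It lost the call when IRF8 of IRI short or IRF12 or IRF9 of IRI long was left out (−1.27, −1.81 and −1.27, limma adjusted p = 0.0956, 0.0677 and 0.0916). Among non-immune cells the change was −0.64 (limma adjusted p = 0.256). Averaged over the days, IRI long and IRI short differed by 0.05 ± 0.25 (limma adjusted p = 0.885), when 27.8% of clusters were called.

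Between the early days and 14 d the Myofib fraction fell after both ischemia times and fell further after IRI long. From the mean of 1 and 3 d to 14 d the change was −1.61 ± 0.37 after IRI short (limma adjusted p = 0.00486), when 11.1% of clusters fell. After IRI long it was −4.00 ± 0.37 (limma adjusted p = 4.92e-08), when 22.2% of clusters fell. Of 18 clusters Myofib had the largest fall after IRI long, ahead of Endo at −2.16. After IRI short only Mono_2, a monocyte cluster, fell further (−2.22).

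These changes differed between the ischemia times by −2.39 ± 0.53 (limma adjusted p = 0.00466), and Myofib was the 1 cluster (5.56%) for which the difference passed. Among non-immune cells the difference was −1.82 (limma adjusted p = 0.0261), and with weights from counting error it was −2.25 and did not pass (0.233). Without IRF8 it was −2.11 (limma adjusted p = 0.0627) and without IRF9 −2.12 (0.0605), whereas the fall after IRI long passed without any single library (−4.27 to −3.73). The fall after IRI short did not pass without IRF10 (−1.34, limma adjusted p = 0.135).

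A fraction of a library depends on every other cell type in it, so Myofib cells were also counted against other kidney cells. Among non-immune cells Myofib cells made up 0.0862 to 0.354% in Control (median 0.155%, n = 6, norm5 0.164%). At 3 d after IRI long the values were 5.87 and 9.39%, a mean of 41.8 times Control, and at 3 d after IRI short 1.97 and 2.23%. At 1 d they were 2.49 and 1.66% after IRI long and 0.775 and 0.669% after IRI short. All 8 early libraries were above all Control libraries on this scale too.

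At 14 d, Myofib cells were 0.158 and 0.364% of non-immune cells after IRI short and 0.146 and 0.0660% after IRI long. Of these only the second IRI short library exceeded the Control range and only the second IRI long library lay under it. In a limma fit of the 10 non-immune clusters, the changes from Control at 3 d were 2.51 after IRI short (adjusted p = 3.79e-06) and 3.82 after IRI long (adjusted p = 1.02e-08), when 50% of these clusters rose at each.

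Per endothelial cell of the clusters GEC (glomerular endothelial cells) and Endo together, the IRI long libraries lay above the Control range at 3 d, below it at 14 d and inside it at 1 d, but per Endo cell alone the 3 d libraries lay inside it. Endothelial cells line the vessels along which pericytes, a source of myofibroblasts, sit. Counted per 100 cells of both clusters, Control libraries held 1.52 to 7.45 Myofib cells, with a median of 5.46, a mean of 5.07 ± 2.18 (SD, n = 6) and 6.87 in norm5. At 1 d the values were 6.16 and 6.08 after IRI short and 6.70 and 6.41 after IRI long, all inside the Control range. At 3 d after IRI short they were 6.71 and 12.4. At 3 d after IRI long they were 19.2 and 25.2, above every other library.

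At 14 d they were 1.27 and 2.60 after IRI short and 1.08 and 0.323 after IRI long, and the IRI long libraries were below all Control libraries. On the log2 ratio, with 0.5 cells added, the difference from Control was 2.20 at 3 d and −2.59 at 14 d after IRI long. Each had the smallest two-sided exact permutation p possible (0.0357), or 0.107 adjusted over the 6 groups tested against Control. Over all days the ratio differed from Control by −0.01 after IRI short and by 0.02 after IRI long (exact permutation, adjusted p = 0.985 for both). Against Endo cells alone those differences were −1.29 and −1.85 (exact permutation, adjusted p = 0.0844 for both). Per 100 Endo cells, Control libraries held 27.3 to 233 Myofib cells. After IRI long the values were 61.9 and 90.6 at 3 d, inside that range, and 18.3 and 20.3 at 1 d and 9.52 and 2.04 at 14 d, below it.

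**Figure D2:**
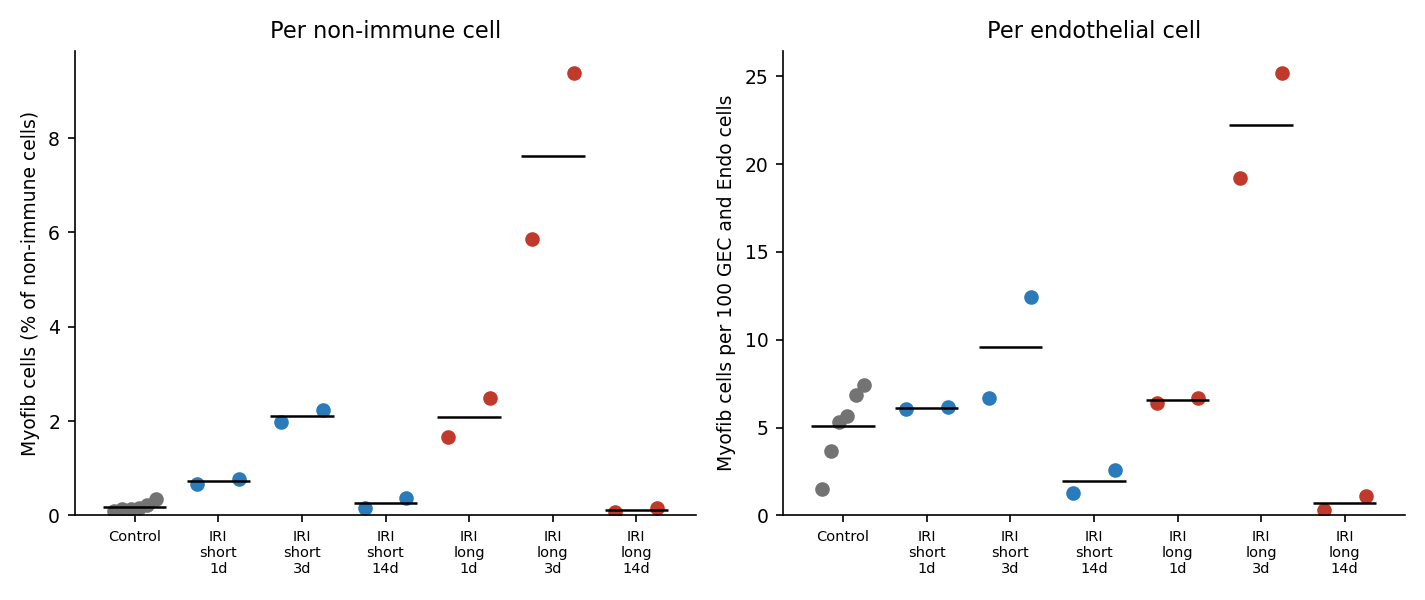
Myofib cells as percent of non-immune cells (left) and per 100 endothelial cells of the clusters GEC and Endo (right), by treatment and day, with libraries as points and group means as lines. On the right the 1 d libraries, at 6.08 to 6.70, lie inside the Control range of 1.52 to 7.45, and the 3 d IRI long libraries, at 19.2 and 25.2, above it.

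On the map of the 18 libraries most Myofib cells formed 1 compact island, and a small set lay among glomerular endothelial cells. Cells within 0.5 map units were joined into islands of at least 5 cells. The largest island held 401 of the 486 cells (82.5%), and 99.1% of their 30 nearest cells were Myofib too. A second island of 53 cells (10.9%) lay amid GEC, the name of 81.3% of their nearest cells. In the second annotation 41 of these 53 cells were named GEC, Endo and 3 SMC.

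Islands of 6 and 5 cells lay among PC (collecting duct principal cells) and DCT (distal convoluted tubule cells), and 21 cells were in no island. Over all Myofib cells, 83.9% of nearest cells were Myofib, 10.1% GEC, 2.33% DCT and 2.01% LOH (loop of Henle). As a description, the cluster was mostly but not entirely separate from endothelial and tubule clusters on the map.

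The Myofib cells of Control libraries were spread over more of the map, a difference that was not tested. Of the 53 Control cells 29 (54.7%) lay in the largest island, against 372 of 433 IRI cells (85.9%), and the island among DCT held 5 cells, all from Control. Of nearest cells, 21.3% were DCT and 10.3% LOH for Control cells, whereas for IRI cells LOH reached at most 1.45% in any group and DCT was 0%. Control libraries differed among themselves, from 15 of 17 Myofib cells in the largest island in Scl to 1 of 7 in norm3 and 2 of 9 in norm5. The island was found in these same pooled cells, most of them from IRI, and it kept a smaller share of Control cells. Counting only its cells therefore favours IRI over Control by selection, and the changes are no separate support for a rise. The p-values do not account for this selection. When only the cells of this island were counted, the changes at 3 d were 2.36 after IRI short and 3.32 after IRI long (limma adjusted p = 1.72e-05 and 3.46e-07). At 14 d after IRI long the change was −1.24 (limma adjusted p = 0.00535), and at 14 d after IRI short it was 0.38 (0.398), of the opposite sign to that of all Myofib cells.

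**Figure D3:**
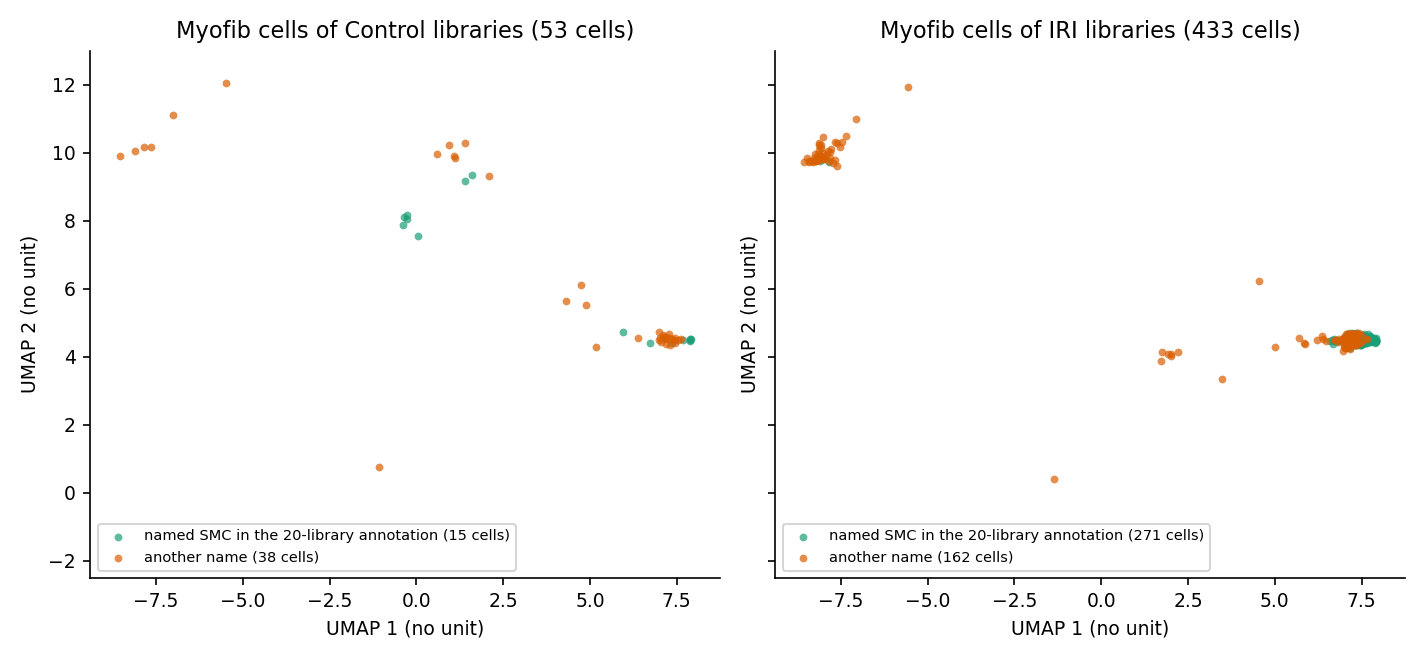
UMAP positions (no unit) of the 53 Myofib cells of Control libraries (left) and the 433 of IRI libraries (right), each point a cell, coloured by whether the 20-library annotation named the cell SMC. The island at the right of each panel holds 29 Control and 372 IRI cells, and the island at the upper left, among GEC, 4 and 49.

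The second annotation gave the name SMC to 286 of the 486 Myofib cells (58.8%). Another 83 were named GEC, Endo, 49 PST (proximal straight tubule) and 29 LOH. None was named Fibro, a cluster of 7059 cells in these libraries, and 0 of 486 leaves room for a share up to 0.617%. Of the Fibro cells 6574 (93.1%) had been Mono_1 in the first annotation.

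Myofib cells of IRI libraries were named SMC more often than those of Control libraries. Among libraries with at least 5 Myofib cells the share was 65.0% ± 12.2 in IRI (SD, n = 10) and 29.4% ± 40.3 in Control (n = 5), with a two-sided exact permutation p of 0.0216. In IRI the lowest, median and highest shares were 39.7, 67.2 and 80.0%. In Control they were 23.5% in Scl, 12.5% in norm1, 11.1% in norm2, 0% in norm3 and 100% in norm5, where all 9 cells were named SMC. The share in norm5 exceeded every IRI library of this test, and its Myofib cells lay mostly outside the largest island. Without norm5 the exact permutation p was 0.000999, the smallest that 1001 arrangements allow. In that test all Control libraries had the smaller barcode pool and no IRI library did, so treatment and pool cannot be told apart. Without norm1, norm2 or norm3 the exact permutation p was 0.0569, 0.0589 and 0.0689.

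Seen from the other side, most SMC cells had not been Myofib. Of the 1075 SMC cells in the 18 libraries 26.6% came from Myofib and 60.0% from immune clusters: 279 from T cell_2, 182 from T cell_1 and 168 from Macro (macrophages). A further 97 came from the proximal tubule clusters PT S1 and PT S3. Of T cell_2, T cell_1 and Macro cells 4.36, 4.39 and 2.21% were named SMC, of PT S1 and PT S3 cells 0.474 and 0.256%, against 0.308% of GEC cells and 0 of 1552 Endo cells, a count compatible with shares up to 0.193%.

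The origin of the SMC cells changed with the day after ischemia. At 1 d Myofib supplied 65.3% of SMC cells after IRI short and 85.6% after IRI long. At 3 d it supplied 18.5 and 30.8%, and at 14 d 9.03 and 1.06%. Immune clusters supplied 80.6% at 14 d after IRI short and 80.9% after IRI long. In Control, Myofib supplied 9.09%, immune clusters 54.5% and PT S1 and PT S3 30.3%. On the map of its own annotation SMC was compact, with 99.4% of its 1193 cells in 1 island and 89.4% of nearest cells also SMC. Beyond 1 d the SMC cells were thus mostly other cells than Myofib. The paper states that the clusters of the 18 libraries were named by hand with a list of marker genes. Neither name was checked against a marker here, so which annotation holds the myofibroblasts was not tested. The cells are called SMC here.

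**Figure D4:**
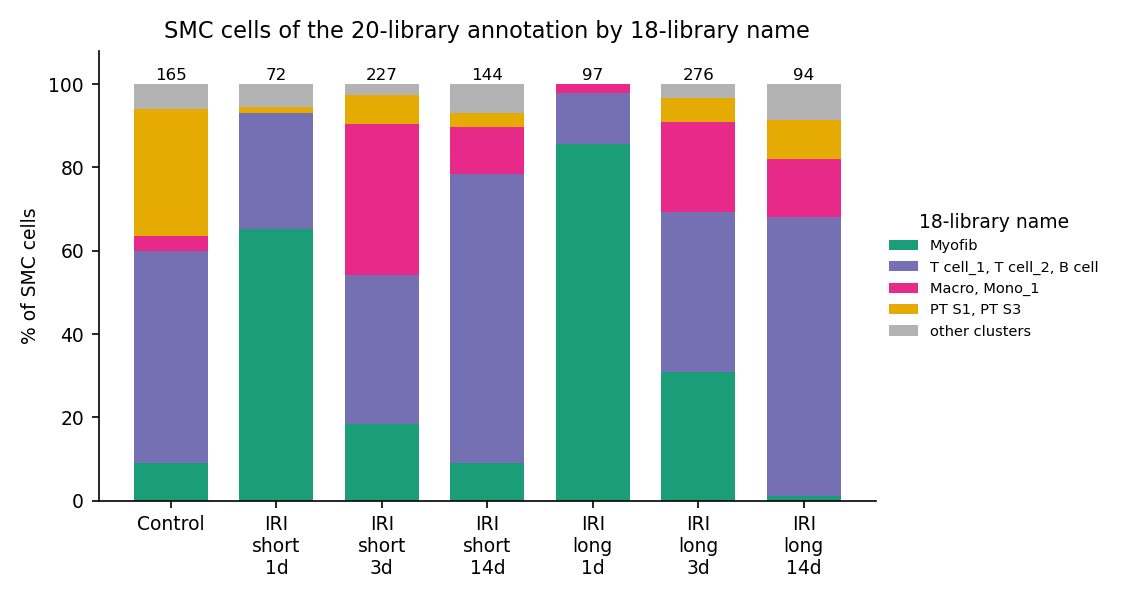
SMC cells of the 20-library annotation by their name in the 18-library annotation, as percent of the SMC cells of each treatment and day, with the number of SMC cells above each bar. Myofib (green, at the base) supplied 85.6% at 1 d after IRI long and 1.06% at 14 d after IRI long.

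The SMC fraction gave another time course than the Myofib fraction. It was 0.222 to 0.765% in Control (median 0.330%, mean 0.429% ± 0.230, SD, n = 6, norm5 0.765%), 0.390 and 0.404% at 1 d after IRI short and 0.737 and 0.663% at 1 d after IRI long. At 3 d it was 2.03 and 4.85% after IRI short and 4.37 and 3.25% after IRI long. At 3 d all 4 libraries exceeded all Control libraries, as for Myofib, but the 1 d libraries did not.

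In limma fits over the 19 clusters the SMC changes from Control at 3 d were 2.11 ± 0.37 after IRI short (adjusted p = 0.000113) and 2.29 ± 0.37 after IRI long (adjusted p = 3.59e-05), when 36.8 and 42.1% of clusters rose. At 1 d they were 0.02 and 0.58 (limma adjusted p = 0.966 and 0.194). At 14 d the SMC fraction was 0.751 and 1.37% after IRI short and 0.411 and 0.899% after IRI long. There the changes were 0.95 ± 0.37 after IRI short (limma adjusted p = 0.0406), when 31.6% of clusters rose, and 0.44 ± 0.37 after IRI long (limma adjusted p = 0.310). The sign at 14 d after IRI long was opposite to that of Myofib.

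For the inhibitor libraries only the SMC name was at hand, with 1 library for each compound, and no test between treatments was made. The paper describes the inhibitor mice as a later set of experiments than the IRI long libraries, with compounds given in DMSO and sesame oil. Experiment, vehicle and compound thus cannot be told apart here. With VX765, 69 of 10610 cells were SMC, or 0.650% (exact 95% binomial interval 0.506 to 0.822%), between the IRI long libraries of 14 d at 0.411 and 0.899%. With Liproxstatin, 49 of 12605 cells were SMC, or 0.389% (0.288 to 0.514%), just under both. The interval of the lower IRI long library (0.276 to 0.590%) covers the Liproxstatin value.

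Per non-immune cell, a class that here includes Fibro, the SMC share was 0.737% with VX765 and 0.410% with Liproxstatin. It was 1.66 and 2.53% in the IRI long libraries and 0.250 to 0.873% in Control. Most Fibro cells had been Mono_1 in the first annotation, so by those names this class was partly immune. Fibro was 483 of 1746 and 638 of 2567 of its cells in the IRI long libraries of 14 d. With VX765 it was 225 of 9362 and with Liproxstatin 141 of 11958, so these shares do not compare like classes. Per 100 cells named GEC, Endo the SMC number was 15.9 with VX765 and 37.4 with Liproxstatin. It was 15.3 and 21.1 in IRI long and 4.48 to 38.3 in Control. The endothelial ratios rest on 433 such cells with VX765 and 131 with Liproxstatin. The order of the compounds was thus reversed between these scales.

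Positions on the map of the second annotation were used to look for inhibitor cells that resembled Myofib. Cells whose 30 nearest cells of the 18 libraries were by more than 50% former Myofib cells numbered 14 (0.132%) with VX765 and 4 (0.0317%) with Liproxstatin. The same rule in the IRI long libraries of 14 d gave 8 and 12 cells (0.113 and 0.166%), of which 1 in each was Myofib by name. Over all 18 libraries 73.5% of the cells found were Myofib and 45.1% of Myofib cells were found. At 14 d after IRI long only 1 of 8 and 1 of 12 cells found were Myofib, so there the rule does not count Myofib cells.

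**Figure D5:**
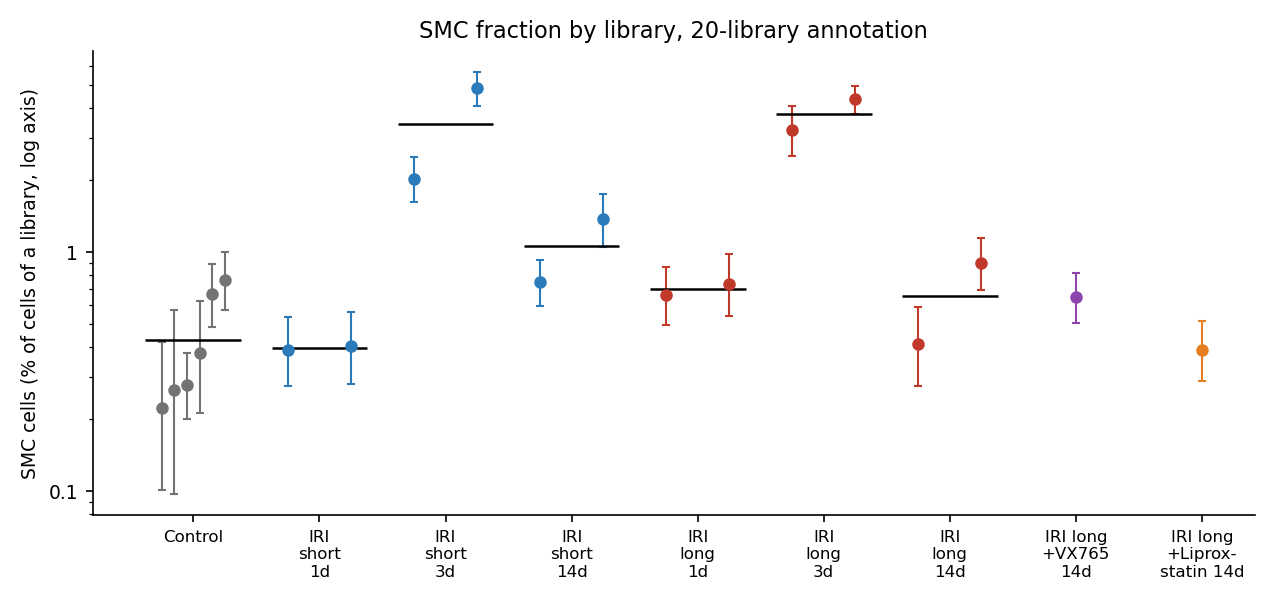
SMC cells of the 20-library annotation as percent of all cells of a library (log axis), with exact 95% binomial intervals as bars and the group mean as a line where a group has more than 1 library. The libraries with VX765 (0.650%) and Liproxstatin (0.389%) lie beside the 14 d IRI long libraries at 0.411 and 0.899%, whereas the 3 d libraries reach 2.03 to 4.85%.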

How the data were processed

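Per the labels, all libraries were made with 10X Chromium 3′ v3 chemistry. Cell barcodes of 5 Control libraries came from a smaller pool than the others, and whether their chemistry differed was not tested. The authors aligned reads to GRCm38 (mm10) with Cell Ranger, filtered cells on expressed genes and mitochondrial reads, excluded doublets called by DoubletFinder, integrated libraries with LIGER and named clusters by hand, as the methods and the submitters' processing notes state. The results shown carry no correction for ambient RNA. The authors deposited, for each cell, a cluster name, a treatment label and 2 UMAP coordinates, which are scores without unit. How the annotation with SMC was made is described in the sources used here only for another cell number.

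Libraries were told apart by the shared start of their cell names and grouped by the treatment label of their cells. They could not be tied to replicate numbers. The number of cells stands for the depth of a library. Columns of per-sample values left unused numbered 0.

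Fractions entered limma 3.58.1 (R 4.3.3) as logits after adding 0.5 cells, with 7 group means, 15 contrasts and Benjamini-Hochberg adjustment over the clusters at 0.05. This fit was tested on simulated data. For ratios and shares, exact permutation tests (two-sided) were used. Islands were found with DBSCAN (distance 0.5, at least 5 cells) and neighbours were the 30 nearest cells. Python 3.11.15, scipy 1.17.1 and scikit-learn 1.9.0 were used. The members, lists and tests were chosen with earlier results of these data known. Clusters named were Myofib, SMC, GEC, Endo, those holding at least 5% of Myofib or SMC cells of the other annotation, the 3 most frequent neighbour clusters and those ranked next to Myofib. PC, DCT, PT S1, PT S3 and Fibro were also named after their values were seen.

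Alternatives tried were 0.1 added cells, an arcsine square root or centred log-ratio scale, non-immune cells as denominator, weights from counting error, a filter of 10 cells in 2 libraries, SMC in place of Myofib, the barcode pool as a term, exact permutation, 100 neighbours, an island distance of 1, a minimum of 1 cell and leaving out each library, of which 1 value is not reported here. Counting only the largest island, only Myofib cells also named SMC, only 1 and 3 d, or cells near Myofib cells, and the ratio by day, were added after seeing the data.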

Additional observations from a re-analysis of the deposited data

Results flagged for a closer look

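The share of Myofib cells that the second annotation named SMC was 100% in the Control library norm5 (9 of 9 cells), far from the next highest Control library at 23.5%. The gap was 0.765 of the whole range of the 6 Control libraries, above Dixon's limit of 0.625. In 7 measures checked for Control libraries this was the 1 value so far from the others, and chance gives about 1 in 20 such values. In the same library 2 of 9 Myofib cells lay in the largest island of the map, and norm5 is also the Control library whose barcodes resemble those of the IRI libraries. The part of either in this value was not tested.

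The fall of the Myofib fraction from 1 and 3 d to 14 d differed between IRI long and IRI short by −2.39 on the logit scale (limma adjusted p = 0.00466). It rests on 3 Myofib cells in the 14 d IRI long libraries and 17 in those of IRI short, and did not pass without IRF8 or IRF9 or with weights from counting error (−2.25, limma adjusted p = 0.233).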

How the results depend on the processing

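Changes of the Myofib fraction from Control turned or lost the limma call as follows. On the centred log-ratio scale they were −0.25 for IRI short, −0.042 for IRI long, −0.066 for IRI short at 1 d, 0.46 at 3 d and −1.15 at 14 d, the last now past the threshold. On the arcsine scale they were 0.0270 for IRI short at 1 d, −0.0250 for IRI long at 14 d, −0.0205 for IRI long against short at 14 d and −0.0454 for IRI short at 14 d against earlier days. With weights from counting error the values were 0.92 for IRI long and −1.69 at 14 d, −1.43 for IRI long against short at 14 d, −1.66 for IRI short against earlier days and −2.25 for the difference of the falls. With the barcode pool as a term, where norm5 alone stood for Control, they were 0.95, 1.01 and, for IRI short at 1 d, 1.14. Among non-immune cells IRI short at 14 d was 0.36, IRI long −0.28 and long against short −0.64. Exact permutation gave 0.910 percentage points for IRI long (p = 0.0606) and −0.141 at 14 d (p = 0.0714).

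With SMC in place of Myofib, changes from Control were 0.016 at 1 d and 0.95 at 14 d for IRI short and 0.58 and 0.44 for IRI long, long against short at 14 d was −0.51, the falls were −0.11 and −0.99 and their difference −0.89. With Myofib cells also named SMC, IRI long against short was −0.19, 14 d against Control 1.12 after IRI short and −0.97 after IRI long, and the IRI short fall −1.43. The largest island alone gave 0.38 for IRI short at 14 d, and 0.1 added cells −0.0090 for IRI long against short. The endothelial ratio, near 0 over all days, was 0.036, −0.024 and −0.060 with 0.1 added cells, −1.85 and −0.56 for IRI long against Control and against IRI short with Endo alone, and 0.31 for IRI short with SMC. Cells near Myofib cells made up 0.132 and 0.0317% of the inhibitor libraries. The cause of these shifts was not tested.

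Leaving out 1 library, IRI long against short ranged from −0.041 to 0.15, IRI short at 1 d from 0.92 to 1.19 (the call was lost in 2 of the 18 fits, with a limma adjusted p of 0.110 without IRF2), IRI short at 14 d from −0.49 to 0.052, long against short at 14 d from −1.81 to −1.27, the IRI short fall from −1.88 to −1.34 and the difference of the falls from −2.66 to −2.11. The endothelial ratios ranged from −0.30 to 0.36, −0.45 to 0.69 and −0.22 to 0.27, and the difference in the share named SMC from 28.2 to 53.2 points. Under the settings other than leaving out a library, 134 comparisons kept direction and call. Another 16 turned, 25 lost the call, 1 gained it and 2 moved out of the counting interval. The filter removed none of the 18 clusters, so its 15 comparisons, counted among the 134, could not differ. A minimum of 10 Myofib cells could not be run, as 1 Control library reaches it. No paired analysis was possible because the cell names give no replicate number. The 14 d IRI long libraries hold 2 and 1 Myofib cells, which limits every value that rests on them.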
